A study of Mus musculus with 6 samples.

Results

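The genes described are the 7 linker histone H1 genes expressed in somatic cells, Hist1h1a, Hist1h1b, Hist1h1c, Hist1h1d, Hist1h1e, H1f0 and H1fx, chosen by name among the 35976 genes measured. Their RNA was measured in satellite cells (SCs), the stem cells of skeletal muscle, in 3 cultures labelled NF-YA cKO and 3 labelled NF-YA fl/fl, all from mouse hindlimb muscle. NF-Y is a transcription factor of 3 subunits, of which NF-YA recognizes the DNA. Both genotypes carry floxed NF-YA alleles and were injected with tamoxifen (20 mg/ml), and NF-YA cKO mice carry in addition Pax7-CreERT2, which deletes the floxed part in cells that use the Pax7 promoter. Control mice carry no Cre, so Cre activity differs between the genotypes together with the deletion. Mice were 5 to 7 weeks old by the labels and 6 to 8 weeks old by the study's Methods, which give 5 daily injections, a wait of 7 days, depletion of cells with CD31, CD45, CD11b or Sca1, and 4 days in growth medium. Whether libraries of one genotype came from separate mice is not stated for the RNA-seq, so that p-values cover the spread between these cultures.

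Linker histones bind the DNA where it enters and leaves the nucleosome and help to fold chromatin. The Hist1h1 genes are replication-dependent. Their mRNAs are made mainly in S phase, have no poly(A) tail and end at a stem-loop bound by the protein SLBP. H1f0 and H1fx are replication-independent variants with polyadenylated mRNAs, and H1f0 is known to accumulate in cells that leave the cell cycle and differentiate. The libraries were made from total RNA, a protocol that does not select for a poly(A) tail.

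All 7 genes have a single exon and 1 transcript each in the files. On GRCm38 (mm10), Hist1h1d, Hist1h1e, Hist1h1c and Hist1h1a lie within 209381 bases of chromosome 13, from 23555032 to 23764412. Hist1h1b lies 1774407 bases before them (21779832 to 21780625). H1f0 is on chromosome 15 (79028212 to 79030504) and H1fx on chromosome 6 (87980421 to 87981482). In newer nomenclature, in the order in which the genes were listed at the start, they are H1f1, H1f5, H1f2, H1f3, H1f4, H1f0 and H1f10.

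NF-Y binds CCAAT boxes, and histone H1 promoters are known for an AAACACA element, the H1 box, ahead of the CCAAT and TATA boxes. The 150 bases before the annotated transcript start are given for the 5 Hist1h1 genes and for H1f0 (RefSeq, GRCm38.p6, strand of the gene). They show which of these elements lie in that stretch. Capitals mark CCAAT on either strand (ATTGG where it is on the other strand), AAACACA on either strand and TATAAA on the strand of the gene.
Hist1h1a, chr13:23763518-23763667, plus strand: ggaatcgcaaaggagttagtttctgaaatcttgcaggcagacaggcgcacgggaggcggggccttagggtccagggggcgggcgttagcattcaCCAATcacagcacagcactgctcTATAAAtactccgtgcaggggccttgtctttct
Hist1h1b, chr13:21780626-21780775, minus strand: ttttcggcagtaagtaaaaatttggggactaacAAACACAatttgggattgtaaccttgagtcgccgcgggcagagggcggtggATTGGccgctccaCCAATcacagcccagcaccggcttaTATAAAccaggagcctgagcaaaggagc
Hist1h1d, chr13:23554882-23555031, plus strand: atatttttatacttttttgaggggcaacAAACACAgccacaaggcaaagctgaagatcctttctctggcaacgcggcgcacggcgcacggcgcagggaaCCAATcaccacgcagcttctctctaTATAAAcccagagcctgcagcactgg
Hist1h1e, chr13:23622559-23622708, minus strand: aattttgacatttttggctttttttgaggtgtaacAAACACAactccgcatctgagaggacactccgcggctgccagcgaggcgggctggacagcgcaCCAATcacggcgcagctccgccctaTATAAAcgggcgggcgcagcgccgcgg
Hist1h1c, chr13:23738657-23738806, plus strand: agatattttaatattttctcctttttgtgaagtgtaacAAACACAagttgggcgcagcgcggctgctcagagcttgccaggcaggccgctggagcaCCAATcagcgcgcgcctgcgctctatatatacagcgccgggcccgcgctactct
H1f0, chr15:79028062-79028211, plus strand: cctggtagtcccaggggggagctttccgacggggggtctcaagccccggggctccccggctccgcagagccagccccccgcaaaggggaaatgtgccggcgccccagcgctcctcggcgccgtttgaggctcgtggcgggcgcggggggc

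In the longer window of 250 bases before to 50 bases after the start base, CCAAT was found in 5 of 5 Hist1h1 genes and in neither H1f0 nor H1fx. One CCAAT of each Hist1h1 gene begins 51 to 56 bases before the start, and Hist1h1b holds 3. The AAACACA element was present in 4 of the 5, not in Hist1h1a, and TATAAA in 4 of the 5, not in Hist1h1c. Only exact matches were counted, and the printed Hist1h1c sequence holds the similar letters tatatata, so a variant TATA box would be missed. Among 32851 promoters of the same length, 37.4% hold CCAAT, 7.18% AAACACA, 8.32% TATAAA and 0.344% all 3. The windows of H1f0 and H1fx are rich in G and C (75% and 77.7%, against 45.7% to 54.3% in the Hist1h1 genes). Another annotation, GENCODE, places the start of H1f0 238 bases downstream, that of H1fx 155 bases upstream and that of Hist1h1d 1770 bases upstream, so that the window depends on the annotation for these 3 genes. A match describes the letters of the window and not binding in these cells.

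**Figure D1:**
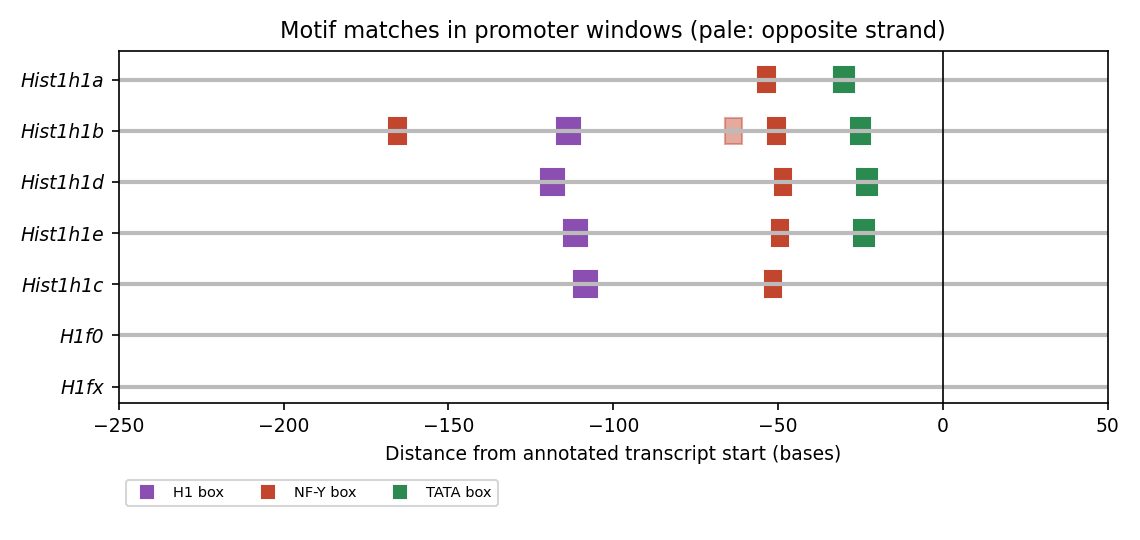
Matches to 3 promoter motifs in the windows of the 7 linker histone genes, by distance in bases from the annotated transcript start (x axis; 1 line per gene). Boxes mark the NF-Y box (CCAAT), the H1 box (AAACACA) and the TATA box (TATAAA), and pale boxes lie on the other strand; the lines of H1f0 and H1fx hold none.

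The other end of the mRNA was compared as well. The histone stem-loop, which SLBP binds, was searched after the stop codon of the GENCODE models and was found in 4 of the 5 Hist1h1 genes, with up to 5 bases given on either side and the match in capitals.
Hist1h1a: ccaacGGCTCTTTTCAGAGC
Hist1h1d: caaacGGCTCTTTTCAGAGCcaccc
Hist1h1e: ccaaaGGCTCTTTTCAGAGCcaccc
Hist1h1c: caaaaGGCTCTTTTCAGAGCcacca
The capitals are the same 15 bases in all 4, and they begin 25 to 41 bases after the stop codon. The model of Hist1h1a ends with them, and the model of Hist1h1b ends at its stop codon, so that this end could not be searched. No match was found in H1f0 (1198 bases after the stop codon) or H1fx (369 bases).

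The coding sequences of Hist1h1d, Hist1h1e and Hist1h1c are the most alike (81.2% to 83.9% identical), Hist1h1b shares 75% to 79.2% with these 3, and H1f0 and H1fx share 54.0% to 57.9% with the other members. Stretches of 75 bases, the read length, that occur in another annotated gene made up 15.4% of Hist1h1d, 14.8% of Hist1h1e and 15.2% of Hist1h1c, and 0% of the other 4, and the genes they occur in were these 3 themselves. The authors' counting program divides reads that fit several transcripts, and the levels of these 3 genes hold an estimated part.

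Libraries held 31040863 to 41118984 expected counts in NF-YA cKO and 26936230 to 33316730 in NF-YA fl/fl, and 3 counts correspond to 0.0730 to 0.111 CPM (counts relative to library size). As a check of the labels, a transcript entry for the deleted NF-YA allele took 22.3% to 34.2% of the Nfya counts in NF-YA cKO and none in the controls (0 of 613 to 1087 counts). The other Nfya transcripts stayed at 21.0, 21.0 and 17.8 CPM in NF-YA cKO, against 23.4, 25.7 and 36.9 CPM in the controls. Xist stood at 836 to 852 CPM in NF-YA cKO and at 0.306 to 0.475 CPM in NF-YA fl/fl, with the Y-linked Ddx3y at 0.0470 to 0.0957 against 80.9 to 88.6 CPM. The Methods describe male mice. Genotype and the sex-linked expression of the libraries cannot be told apart in any result below. The 8 markers of SCs and myoblasts were all measured, with a sum of 1703 to 1845 CPM in NF-YA cKO and 2371 to 3995 CPM in NF-YA fl/fl. Of these 8 markers 2 (Cdh15 and Des) were called lower and 0 higher, 3 were lower and 3 higher at an unadjusted p under 0.05, and the median log2 fold change was 0.36.

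The question was how linker histone RNA differs between NF-YA cKO cells and their controls. The 5 replication-dependent Hist1h1 genes were 1.87 to 3.84 times as high in NF-YA cKO as in NF-YA fl/fl cells, H1f0 differed by a factor of 1.40, and H1fx by 1.17 with overlapping libraries. Hist1h1a, Hist1h1b and Hist1h1d passed both thresholds, an FDR under 0.01 by edgeR's quasi-likelihood test and a log2 fold change above 1. Hist1h1e and Hist1h1c passed the FDR but stayed just under the fold threshold. So 3 of 7 members were called higher, beside 4.65% of the 17348 genes tested, and 0 were called lower, beside 7.67%. No member was lower at an unadjusted p under 0.05 either, and DESeq2 called 3 higher and 0 lower. The FDR alone was passed by 5 of 7 (10.3% of all genes, counted in the same direction), and in 6 of 7 every NF-YA cKO library lay above every NF-YA fl/fl library (29.1% of all genes). As a median, the log2 fold change was 1.48 for the 5 Hist1h1 genes and -0.02 for all genes tested.

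**Figure D2:**
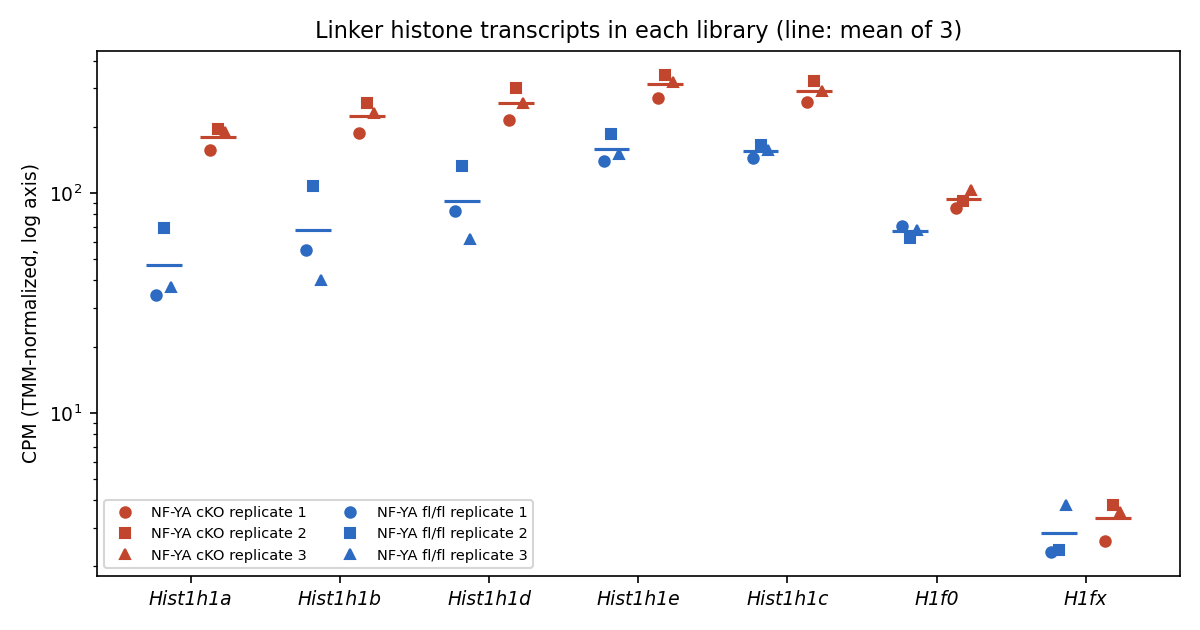
Level of each linker histone gene in each library, in CPM after TMM normalization (log axis), with NF-YA cKO in red, NF-YA fl/fl in blue, 1 symbol shape per replicate number and a line at the mean of 3. The red symbols lie above the blue ones for all genes but H1fx, and the gap narrows from Hist1h1a on the left to H1f0.

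Hist1h1a, the most divergent of the 5 in coding sequence, stood at 157, 195 and 190 CPM in NF-YA cKO replicates 1, 2 and 3, against 34.4, 69.1 and 37.3 CPM in NF-YA fl/fl. The lowest NF-YA cKO library was above the highest control by more than the whole range of the controls. Its log2 fold change was 1.94 ± 0.28 (SE, n = 3 and 3, FDR = 0.0026 by edgeR), and 2.33% of the tested genes had a larger one.

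Hist1h1b, whose product (H1.5) is abundant in dividing cells, was at 187, 257 and 231 CPM in NF-YA cKO and 55.0, 108 and 40.1 CPM in NF-YA fl/fl. The controls spread over a 2.70-fold range, wider than for any other member, and did not reach the NF-YA cKO libraries. The log2 fold change was 1.73 ± 0.36 (SE, FDR = 0.0098 by edgeR), close to the threshold.

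Hist1h1d (H1.3) was measured at 215, 301 and 255 CPM in NF-YA cKO against 82.5, 133 and 62.0 CPM in NF-YA fl/fl. The groups were again apart, and NF-YA fl/fl replicate 2 was the highest control. The log2 fold change was 1.48 ± 0.28 (SE, FDR = 0.0074 by edgeR).

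Hist1h1e (H1.4) and Hist1h1c (H1.2) code for the main somatic linker histones and were the highest members per length (TPM). Hist1h1e gave 271, 346 and 322 CPM in NF-YA cKO and 140, 186 and 151 CPM in NF-YA fl/fl. The log2 fold change was 0.98 ± 0.15 (SE, FDR = 0.0030 by edgeR). For Hist1h1c the values were 259, 322 and 291 CPM against 144, 166 and 157 CPM, a log2 fold change of 0.90 ± 0.11 (SE, FDR = 0.0017 by edgeR). These 2 genes had the smallest standard errors of the 5, and neither overlapped between genotypes.

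H1f0 was at 85.4, 91.9 and 103 CPM in NF-YA cKO and at 70.8, 62.6 and 67.7 CPM in the controls. The libraries did not overlap, but the log2 fold change of 0.48 ± 0.10 (SE) missed the FDR threshold (0.012 by edgeR). H1fx, a minor variant, was low in every library, with 2.61, 3.79 and 3.53 CPM in NF-YA cKO and 2.33, 2.38 and 3.80 CPM in NF-YA fl/fl, from 61 to 157 counts per library. NF-YA fl/fl replicate 3 was the highest of the 6 and the groups overlapped. Its log2 fold change was 0.22 ± 0.27 (SE, FDR = 0.55 by edgeR), a difference not detectable at this depth and spread.

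**Figure D3:**
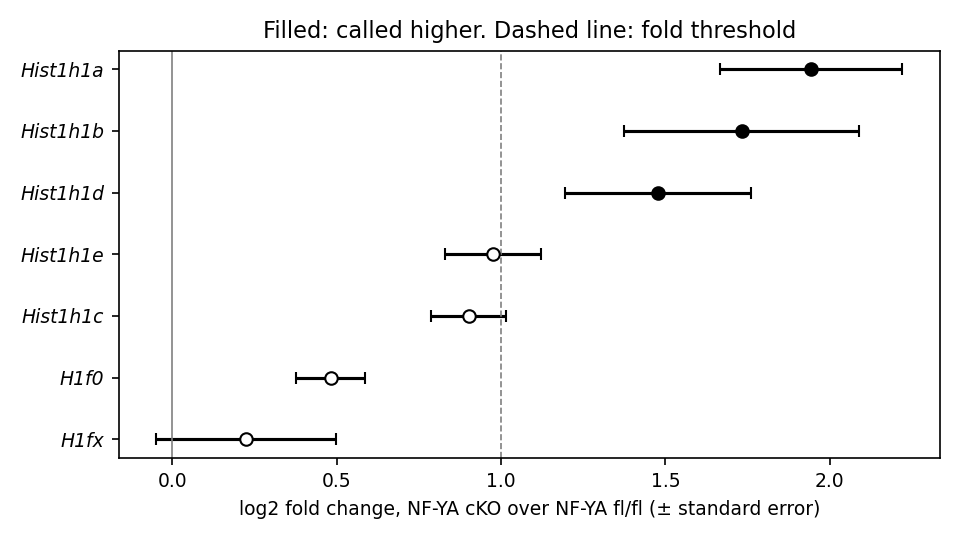
Log2 fold change of each linker histone gene, NF-YA cKO over NF-YA fl/fl, with its standard error (3 libraries against 3); filled points passed both thresholds and the dashed line is a log2 fold change of 1. The values descend from 1.94 (Hist1h1a) to 0.22 (H1fx), and Hist1h1e and Hist1h1c sit just under the dashed line.

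The calls depended on single libraries. Without NF-YA cKO replicate 2, without NF-YA cKO replicate 3 and without NF-YA fl/fl replicate 1 none of the 7 genes was called. Without NF-YA cKO replicate 1 only Hist1h1e was called, and without NF-YA fl/fl replicate 2 there were 4. Over all tested genes, 806 were called higher with every library in. This number was 177 without NF-YA cKO replicate 2, 279 without NF-YA cKO replicate 3 and 298 without NF-YA fl/fl replicate 1. It was 283 without NF-YA cKO replicate 1 and 890 without NF-YA fl/fl replicate 2. The log2 fold changes of the 5 Hist1h1 genes stayed between 0.78 and 2.32 in these fits, while glmTreat, which tests for a change above 1 on the log2 scale, and limma on log2(TPM + 1) called 0 of the 7. At the FDR alone, 0 of the 5 Hist1h1 genes passed without NF-YA cKO replicate 2, NF-YA cKO replicate 3 or NF-YA fl/fl replicate 1. The number was 2 without NF-YA cKO replicate 1, 1 with limma on log2(TPM + 0.1) and 0 with limma on log2(TPM + 1). It was 4 or 5 in the other alternatives but glmTreat (0).

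Libraries of one genotype also differed among themselves. In CPM, replicate 2 was the highest of its genotype for all 5 Hist1h1 genes, in NF-YA cKO as in NF-YA fl/fl. In TPM this held in NF-YA fl/fl, while NF-YA cKO replicate 3 was above replicate 2 for the Hist1h1 genes other than Hist1h1d. In NF-YA fl/fl the CPM ratio of the highest to the lowest library was 2.70 for Hist1h1b, 2.14 for Hist1h1d and 2.01 for Hist1h1a, but 1.33 for Hist1h1e, 1.15 for Hist1h1c and 1.13 for H1f0. In NF-YA cKO the same ratio was 1.24 to 1.40 for the Hist1h1 genes and 1.21 for H1f0. Replicate 2 also held the highest summed level of 24 S-phase genes in each genotype, 1564 CPM among the controls (the other two were 1086 and 1163) and 3192 CPM among the NF-YA cKO libraries (2983 and 3032). For H1f0 the place of NF-YA fl/fl replicate 2 depended on the unit, the lowest control in CPM and the highest in TPM (40.3 TPM, against 37.3 and 29.6 TPM).

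Levels of different genes were compared as TPM, which is per transcript length. The sum over the 5 Hist1h1 genes was 2096, 2325 and 2371 TPM in NF-YA cKO and 871, 1535 and 699 TPM in NF-YA fl/fl, without overlap. Hist1h1c and Hist1h1e were the top pair in all 6 libraries (506 to 574 TPM in NF-YA cKO, 226 to 419 TPM in NF-YA fl/fl) and exchanged places between libraries, so that their order does not stand beyond the spread. Hist1h1d came next (404 to 482 TPM against 94.0 to 301 TPM), followed by Hist1h1b (342 to 405 TPM against 59.1 to 238 TPM) and Hist1h1a (312 to 360 TPM against 59.6 to 166 TPM). Hist1h1b was above Hist1h1a in 5 libraries and just below it in NF-YA fl/fl replicate 3. H1f0 (41.8 to 53.3 TPM against 29.6 to 40.3 TPM) and H1fx (3.34 to 4.32 TPM against 2.94 to 3.93 TPM) were the lowest in every library.

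The make-up of linker histone RNA differed between the genotypes, which is described with no test. The share of Hist1h1a in the summed TPM of the 7 genes was 14.4% ± 0.481 in NF-YA cKO and 8.67% ± 1.61 in NF-YA fl/fl (SD, n = 3), and that of Hist1h1b 16.5% ± 0.504 and 11.4% ± 3.54. The shares moved the other way for Hist1h1c (24.1% ± 0.675 against 31.2% ± 4.79) and Hist1h1e (23.4% ± 0.274 against 28.6% ± 2.18). H1f0 took 2.03% ± 0.232 in NF-YA cKO and 3.56% ± 0.877 in NF-YA fl/fl. The genotypes did not overlap for any of these 5 shares, and they overlapped for Hist1h1d (19.4% ± 0.835 against 16.2% ± 3.16). H1fx took under 1% in all 6 libraries.

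**Figure D4:**
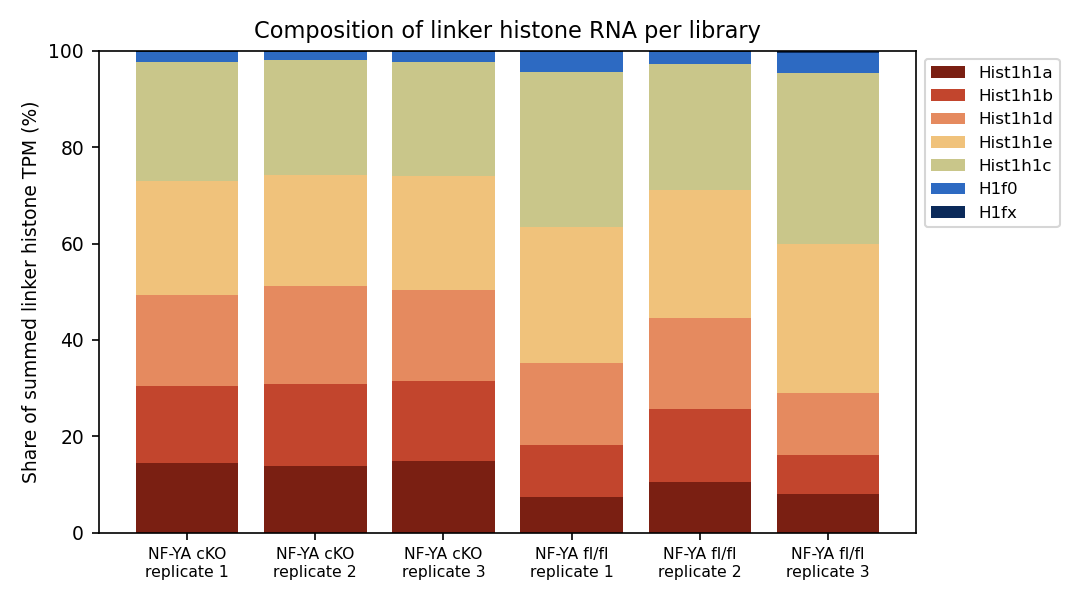
Share of each linker histone gene in the summed TPM of the 7 genes (y axis, percent), 1 bar per library. The lower 3 segments, Hist1h1a, Hist1h1b and Hist1h1d, are together taller in the 3 NF-YA cKO bars than in NF-YA fl/fl, where NF-YA fl/fl replicate 2 comes closest to them, and the H1f0 segment is thinner in NF-YA cKO.

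For each H1f0 transcript there were 45.9, 55.6 and 44.5 Hist1h1 transcripts in the NF-YA cKO libraries and 23.4, 38.1 and 23.6 in NF-YA fl/fl, in TPM. Replicate 2 was the highest of each genotype and the genotypes did not overlap. Within the Hist1h1 genes, the ratio of Hist1h1a to Hist1h1c was 0.600 ± 0.0262 in NF-YA cKO and 0.287 ± 0.0997 in NF-YA fl/fl, whereas the ratio of Hist1h1e to Hist1h1c overlapped (0.975 ± 0.0268 and 0.925 ± 0.0819).

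The core histones, around which the DNA is wrapped, are made in S phase with the Hist1h1 mRNAs. Of the 63 clustered core histone genes in the files 60 were tested, 51 were called higher and 1 lower, with a median log2 fold change of 1.78, beside -0.02 over all genes. Over all tested genes 4.65% were called higher and 7.67% lower, the shares to set beside this and the following lists. Hist1h2bq and Hist1h2br hold the same values in every library, and each counts among the 51 called higher. Near-identical core histone copies divide reads, so that single genes are uncertain. Among those called with a mean of at least 10 CPM, Hist1h3g (75.6 ± 15.7 against 17.8 ± 9.20 CPM), Hist1h4j (70.0 ± 20.0 against 16.5 ± 5.52 CPM) and Hist1h2ah (43.0 ± 9.76 against 10.2 ± 4.12 CPM) had the largest changes. The gene called lower, Hist2h3c1, was named because it is the single one, and it was at 0 in 3 NF-YA cKO libraries and at 0.950 to 1.69 CPM in NF-YA fl/fl. Per 100 core histone TPM there were 12.3, 10.7 and 10.5 Hist1h1 TPM in NF-YA cKO and 15.6, 14.6 and 16.4 in NF-YA fl/fl, so that linker histone RNA was lower relative to core histone RNA in every NF-YA cKO library. The count of called core histone genes fell to 4 without NF-YA cKO replicate 2, to 8 without NF-YA cKO replicate 3, to 10 when NF-YA fl/fl replicate 1 was left out and to 32 without NF-YA cKO replicate 1. It was 1 with glmTreat, 16 with limma on log2(TPM + 1) and 22 with limma on log2(TPM + 0.1).

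Of the 24 S-phase genes 20 were called higher and 0 lower, with a median log2 fold change of 1.41. Rrm2, a subunit of ribonucleotide reductase, was at 441 ± 22.7 against 135 ± 49.1 CPM. Cdc6, which loads the replicative helicase, was at 43.0 ± 1.80 against 13.7 ± 3.33 CPM, and Mcm5, a helicase subunit, at 154 ± 4.09 against 49.6 ± 16.6 CPM. The summed level was 2983 to 3192 CPM in NF-YA cKO and 1086 to 1564 CPM in NF-YA fl/fl. The part of this difference in the Hist1h1 levels was not tested. The number called was 8 without NF-YA cKO replicate 2, 10 without NF-YA cKO replicate 1 or replicate 3 and 11 without NF-YA fl/fl replicate 1. It was 0 with glmTreat and 7 and 8 with limma on log2(TPM + 1) and log2(TPM + 0.1).

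Among 23 genes that transcribe histone genes or process their mRNA, 2 were called higher and 0 lower (median log2 fold change 0.55). Over all tested genes these shares were 4.65% and 7.67%. The 2 called genes were Snrpf and Snrpg, Sm proteins shared by the U7 and the splicing snRNPs. Their log2 fold changes were 1.32 ± 0.12 and 1.0 ± 0.13 (SE). Slbp, the stem-loop binding protein, was at 57.0, 60.5 and 55.5 CPM against 34.1, 35.2 and 24.1 CPM, without overlap, and passed the FDR but not the fold threshold (log2 fold change 0.89, FDR = 0.0053 by edgeR). Npat, the coactivator of the histone loci, differed by 0.24 on the log2 scale (FDR = 0.050 by edgeR). Snrpg is near the threshold, and 1 gene of the list was left without NF-YA cKO replicate 1, 2 or 3, NF-YA fl/fl replicate 1 or NF-YA fl/fl replicate 2. The same number was left with DESeq2, its size factors in edgeR, filterByExpr or either limma fit, and 0 with glmTreat.

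A further list held 19 chaperones of linker histones and chromatin proteins that bind or compete with them. Of these, 9 were called higher and 0 lower (median log2 fold change 1.02). They include Nasp, a histone chaperone that binds linker histones (log2 fold change 1.52), Ptma (prothymosin alpha, 1.88), Hmgb1 (1.60) and Hmga1 (2.46). Hmga1 was uneven in NF-YA cKO, with 77.9, 301 and 259 CPM against 37.0, 48.2 and 30.8 CPM. The number called was 2 without NF-YA cKO replicate 2, 4 without NF-YA cKO replicate 3 or NF-YA fl/fl replicate 1, and 6 without NF-YA cKO replicate 1, and it was 0 with glmTreat and 2 and 5 with limma on log2(TPM + 1) and log2(TPM + 0.1). Of 14 enzymes that modify H1 13 were tested, 5 were called higher and 0 lower (median 0.54). These 5 are kinases of dividing cells and their cyclins, Ccnb1 (1.46), Aurkb (1.36), Cdk1 (1.28), Ccna2 (1.27) and Ccne1 (1.06), all log2 fold changes, and Cdk1 with cyclin B is the classical H1 kinase. None of the list was called when NF-YA cKO replicate 1, 2 or 3 or NF-YA fl/fl replicate 1 was left out, nor with glmTreat or either limma fit. Over the S-phase, histone mRNA and modifier lists, the 1 gene lower at an unadjusted p under 0.05 was Gsk3b, and DESeq2 called no gene of these lists or of the chaperone list lower.

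**Figure D5:**
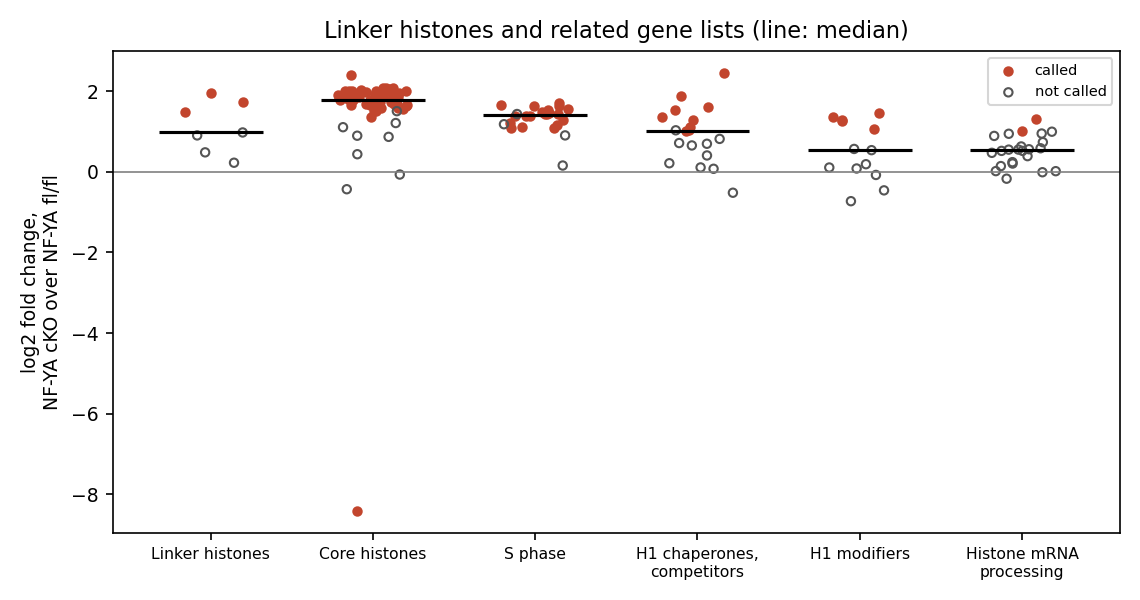
Log2 fold change, NF-YA cKO over NF-YA fl/fl, of each tested gene of the linker histone family and 5 related lists, with called genes filled in red, other genes open, and a line at the list's median. Core histone and S-phase genes lie mostly above 1, the single red point near the bottom is Hist2h3c1, which was at 0 in NF-YA cKO, and the histone mRNA processing genes lie mostly between 0 and 1.

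The 4 germ-line linker histones were at or near 0. Hils1, a spermatid linker histone, was called lower, with 0.0957, 0.0965 and 0.0940 CPM in NF-YA cKO and 0.726, 0.684 and 1.15 CPM in NF-YA fl/fl. The log2 fold change was -3.11 ± 0.38 (SE, FDR = 0.0016 by edgeR). Its NF-YA cKO levels correspond to 3 or 4 reads in each library, and the call was lost without NF-YA cKO replicate 2 or replicate 3. Hist1h1t, the testis H1, had a log2 fold change of -2.67 (FDR = 0.034 by edgeR) and was not called, with 0.0319, 0.0965 and 0.0235 CPM against 0.535, 0.416 and 0.102 CPM. H1foo (oocyte) and H1fnt (spermatid) were too low to be tested, at 0.17 CPM or less in every library. These 4 genes are outside the 7 described above and share with them the globular H1 domain. The 3 NF-Y subunits were not called by edgeR or DESeq2, with 2 higher and 0 lower at an unadjusted p under 0.05: Nfya had a log2 fold change of -0.06 (its counts include the deleted allele), Nfyb of 0.98 (FDR = 0.00060 by edgeR) and Nfyc of 0.48 (FDR = 0.0095 by edgeR).

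Markers of differentiated muscle and of macrophages differed clearly between the genotypes, and those of the other cell types did so in part or not at all. The 8 tested markers of differentiated muscle were all called lower, with a sum of 56.6 to 136 CPM in NF-YA cKO and 9083 to 12290 CPM in NF-YA fl/fl, and of these Myog was at 10.7 to 31.4 CPM against 584 to 1450 CPM. For macrophages 6 of 7 tested markers were called higher, with a sum of 126 to 242 CPM against 5.39 to 14.5 CPM, although cells with CD45 and CD11b had been depleted before culture. Schwann cell markers had 3 of 5 called higher (51.4 to 61.8 CPM against 16.4 to 68 CPM, overlapping), and 1 of 5 endothelial markers was (13.1 to 18.0 against 4.14 to 8.06 CPM). Fibroblast markers went both ways (1939 to 2340 against 1085 to 2878 CPM, median log2 fold change -0.18), with 1 of 7 called higher and 0 lower by edgeR, 2 higher and 3 lower at an unadjusted p under 0.05, and 2 higher and 2 lower by DESeq2. None of the 5 smooth muscle markers was called by edgeR, 1 was lower at an unadjusted p under 0.05 and by DESeq2 (241 to 326 against 154 to 596 CPM). Their part in the linker histone levels was not tested, and in bulk RNA a change in the number of cells of one type cannot be told apart from a change in the RNA per cell.

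The genes whose profile over the 6 libraries was nearest to that of H1f0, by the root mean square difference of centred log2 CPM among 9449 genes, were Dynlt1c (0.034), BC005624 (0.044) and Pusl1 (0.055). Dynlt1c was at 28.7, 30.2 and 34.8 CPM in NF-YA cKO and 25, 21.4 and 22.4 CPM in NF-YA fl/fl. Nearest to Hist1h1b were Hist1h2bn (0.10), 2810417H13Rik (0.10) and Hist1h2br (0.12), of which Hist1h2bn and Hist1h2br are core histone H2B genes. Hist1h2bq has the same values as Hist1h2br in every library and ties with it. Hist1h2bn stood at 102, 140 and 131 CPM against 26.8, 55.0 and 24.3 CPM, with replicate 2 the highest of each genotype as in Hist1h1b.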

How the data were processed

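The 6 RNA-seq libraries of cultured SCs were grouped by the genotype in the labels, with 3 NF-YA cKO replicates against 3 NF-YA fl/fl replicates. The authors aligned paired reads of 75 nt to the mm10 transcriptome with bowtie2, and RSEM gave the level of each gene. Expected counts as deposited are estimates that need not be whole and are neither normalized nor filtered, and the deposited TPM values were scaled by the authors' software to length and to one sum per library, so they keep no depth. Expected counts were rounded here, and of 35976 genes 17348 passed the study's filter (over 10 counts, in 2 or more libraries) and were tested with edgeR 4.0.16 (TMM, quasi-likelihood, no factor but genotype) in R 4.3.3. CPM are TMM-normalized. P-values were adjusted over all tested genes by Benjamini-Hochberg (FDR), and a gene was called at an FDR under 0.01 when its log2 fold change exceeded 1 in size (the study's thresholds). The SE is the size of the log2 fold change divided by the square root of F. The study used DESeq2, which was an alternative here (1.42.0), beside its size factors in edgeR, library totals, filterByExpr, no filter, limma 3.58.1 on log2(TPM + 1) and log2(TPM + 0.1), other thresholds, glmTreat, the replicate number as a block and each library left out. Shares and ratios of TPM have no test.

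The members and gene lists were chosen with earlier results of these data known. Named genes are the 7 members, up to 3 called genes per list with the largest change and a mean of at least 10 CPM, every gene of the germ-line and NF-Y lists, and the 3 nearest profiles of H1f0 and Hist1h1b. Slbp, Npat, Nasp, Gsk3b, Ccna2, Ccne1, Hist2h3c1, Myog, Cdh15, Des, Xist and Ddx3y are named beyond it, chosen with their values in view. In a test on simulated counts, of genes changed by 2 and 3 on the log2 scale the fit called 74 of 100 and 90 of 99, and 2 of 16787 unchanged genes (16986 genes in all). The largest change of a member was 1.94, so changes of the members' size were not simulated. The simulation gave both genotypes the same spread. The estimated coefficient of variation between libraries was 0.10 in NF-YA cKO and 0.31 in NF-YA fl/fl. Counting error is small beside the spread between libraries except for H1fx and the germ-line genes. The result of 1 single gene is left out. No protein sequences were used here.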

Additional observations from a re-analysis of the deposited data

How the results depend on the processing

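The log2 fold changes of the 7 linker histone genes were above 0 in all 17 alternatives. An FDR under 0.05, no fold threshold and glmTreat reuse the main fold changes, so the sign could not differ there. With the looser thresholds no call could be lost. The number called higher (3) was 5 without the fold threshold and 4 without a count filter. It was 2 with DESeq2's size factors in edgeR and with filterByExpr, and 1 with limma on log2(TPM + 0.1). With limma on log2(TPM + 1) and with glmTreat it was 0, and it ranged from 0 to 4 when 1 library was left out. None was called lower. Hist1h1a was called in 11 of the 17, Hist1h1d in 10, Hist1h1b in 7, Hist1h1e in 5 and Hist1h1c in 1. The highest FDR on leaving out 1 library was 0.017, 0.046 and 0.039 for Hist1h1a, Hist1h1b and Hist1h1d, and 0.022 and 0.013 for Hist1h1e and Hist1h1c. H1f0 and H1fx were called in none; DESeq2 gave H1f0 an FDR of 0.0015. The cause of these changes was not tested.

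Over all genes, 806 were called higher and 1331 lower. These counts were 1787 higher without the fold threshold, 2025 lower at an FDR under 0.05, 97 and 510 with glmTreat, 231 and 704 with limma on log2(TPM + 1), and 361 higher with log2(TPM + 0.1). Leaving out 1 library gave 177 to 890 higher and 523 to 1684 lower. No alternative moved the median of all genes by more than 0.1.

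On CPM, which is not per length, the H1f0 share was 6.91% in NF-YA cKO and 11.7% in NF-YA fl/fl, and the ratio of Hist1h1 genes to H1f0 13.6 and 7.88. Leaving out 1 library, the shares were 1.95% to 2.16% and 3.30% to 4.07%, and the ratios 45.2 to 50.8 and 23.5 to 30.9.

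Deviations from the genotype mean correlated at 0.22, -0.12 and 0.052 between same-numbered libraries, and at -0.19 to 0.17 between differently numbered ones. With so few libraries, these correlations cannot decide whether the numbers pair the samples. With a replicate block, 3 members were called higher, as without it, and 625 genes higher and 947 lower in all.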
